A study of Danio rerio with 9 samples.

Results

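Of 32055 gene identifiers counted in zebrafish embryos, 9 belong to transcription factors of the enveloping layer, the periderm and the ventral ectoderm, and these are described here. They are *grhl1* (ENSDARG00000061391), *grhl3* (ENSDARG00000078552), *klf17* (ENSDARG00000038792), *klf2a* (ENSDARG00000042667), *klf2b* (ENSDARG00000040432), *klf6a* (ENSDARG00000029072), *tp63* (ENSDARG00000044356), *gata3* (ENSDARG00000016526) and *tfap2a* (ENSDARG00000059279). They were taken by name and not by a cut on their levels, but earlier results of these data were known when they were chosen. Of these, 8 matched the name table exactly apart from case, and *klf6a* was matched to the row named KLF6, since *klf6b* has a row of its own. All 9 passed the filter on low counts, as did 16962 identifiers in all.

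RNA was sequenced from pools of whole embryos in 3 groups of 3 libraries: wild-type embryos, MZ*mondoa* embryos with unaffected epiboly and MZ*mondoa* embryos with affected epiboly. Both mutant groups carry the ka405 allele of *mondoa* (*mlxip*), a frameshift deletion, and as maternal-zygotic mutants they lack the intact gene product from the mother as well as from their own genome. The labels give an age of 5 hours post fertilization for every group, whereas the methods of the study place sampling late in the epiboly of controls, when affected mutants could be recognised by eye; the age was not resolved here. The affected embryos were chosen by their delayed epiboly, and the labels of the mutant groups differ only in this phenotype. The affected samples were, however, registered in a separate run of sample numbers. Whether they were also processed apart was not tested. Because the samples are whole embryos, fewer cells of a type and less RNA per cell cannot be told apart. Since affected embryos lagged in epiboly, a difference in developmental stage cannot be told apart from other differences of this group. It was not tested.

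The enveloping layer is the outermost epithelial sheet of the fish blastoderm. It spreads over the yolk during epiboly with its margin attached to the yolk syncytial layer, and it later forms the periderm that covers the embryo. Beneath it, BMP signals on the ventral side direct ectoderm towards epidermis, in which the p63 protein is the hallmark of basal keratinocytes. Grainyhead-like proteins regulate genes of epithelial junctions and barrier formation, and Krüppel-like factors are zinc finger proteins used in many epithelia.

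Libraries held 27567897 to 39299268 counts. Values are given as CPM, a gene's counts relative to the size of its library, with library sizes corrected for composition by the TMM method. The 9 factors had between 412 and 10849 raw counts in a library. The transcript of the mutated gene, *mlxip*, was at 111, 113 and 51.9 CPM in wild-type, at 13.0 to 21.0 CPM in unaffected and at 12.8 to 16.1 CPM in affected libraries. In a principal component analysis of log2 CPM the first axis took 52.9% of the variance and separated all groups. Wild-type libraries stood at -63.3 to -58.5, unaffected at -0.915 to 29.3 and affected at 36.2 to 51.5. On the second axis, with 13.1%, replicate 3 of the unaffected mutants stood at -49.3, the lowest of all libraries. Replicate 3 was also the lowest of its group in wild-type (-15.4) and in affected mutants (-7.35). Results that rest on replicate 3 of a mutant group are given below with and without it.

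Against wild-type, affected mutants had more RNA of both grainyhead-like factors and less of *tp63* and *gata3*. In unaffected mutants *grhl1* was higher than in wild-type, and the other factors did not pass the test. A gene was called where the Benjamini-Hochberg adjusted p of edgeR's quasi-likelihood test, over all 16962 genes, was under 0.05. By that rule 1 of the 9 factors was called in unaffected mutants against wild-type, where 9.60% of all genes tested were called and 4.65% were called higher. In affected mutants against wild-type 4 of 9 were called, beside 30.3% of all genes; 2 of 9 were higher, beside 15.4%, and 2 of 9 lower, beside 15.0%. For affected against unaffected mutants edgeR called 0 of 9, beside 2.99% of all genes, while 5 of the 9 had an unadjusted p under 0.05, beside 18.2% of all genes, and DESeq2 called 2, beside 7.22%. Beside these backgrounds the counts say little of the set as a whole, and the values that follow describe single genes.

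**Figure D1:**
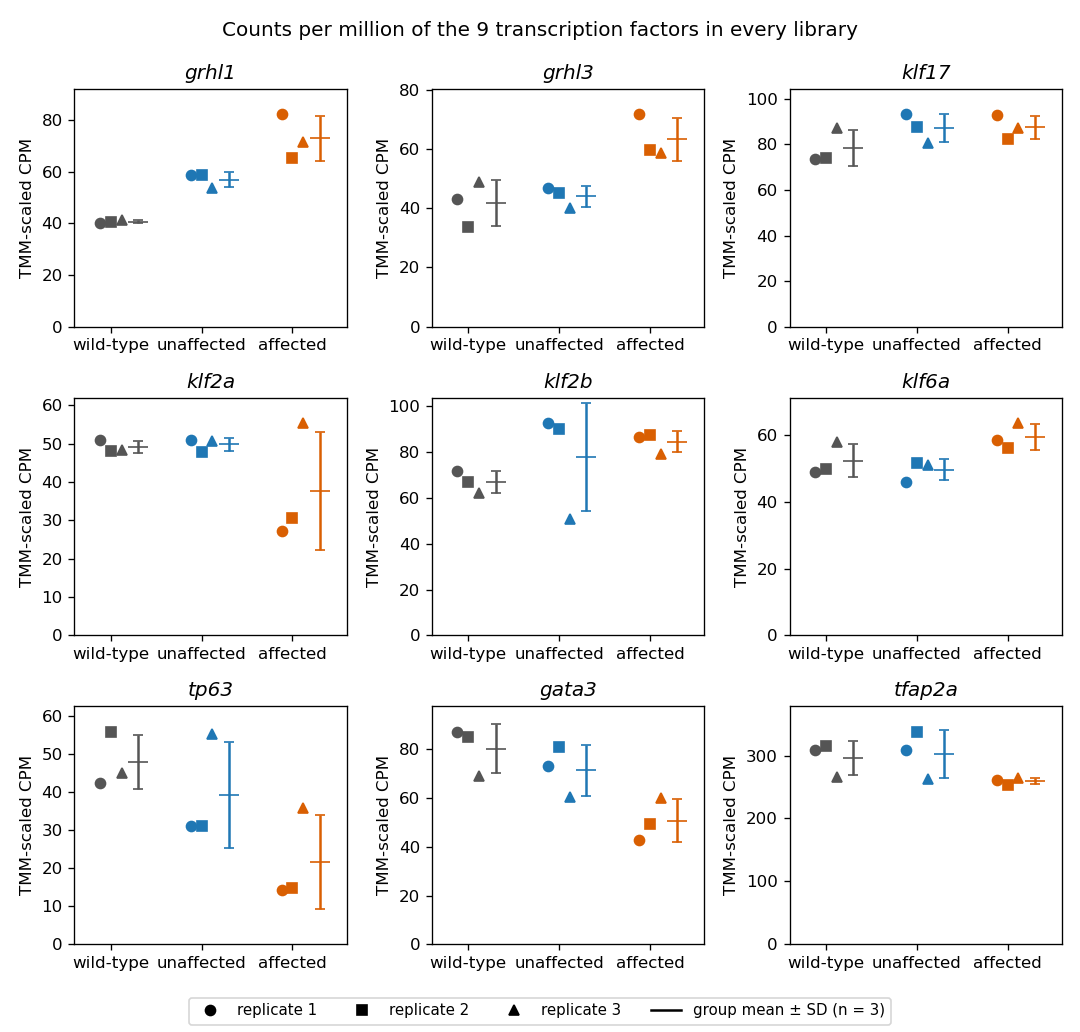
TMM-scaled CPM (vertical axes, from 0) of each factor in wild-type, unaffected and affected libraries, with a marker per replicate and the mean ± SD of 3 libraries beside them. All 3 affected libraries lie above all wild-type libraries for *grhl1* and *grhl3* and below them for *tp63* and *gata3*, and replicate 3 of the affected mutants lies apart for *klf2a* and *tp63*.

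Grhl1 is a grainyhead-like factor of surface epithelia. Its RNA was at 40.0, 40.5 and 41.4 CPM in wild-type, 58.6, 58.6 and 53.5 CPM in unaffected and 82.2, 65.1 and 71.3 CPM in affected libraries. The groups did not overlap in any pair, with wild-type lowest and affected mutants highest. *grhl1* rose 1.40-fold in unaffected mutants against wild-type (log2 fold change 0.49, standard error 0.10; adjusted p = 0.0126 by edgeR) and 1.79-fold in affected mutants (0.84, standard error 0.10; adjusted p = 0.000325 by edgeR). Wild-type libraries differed little from each other, with an SD of 1.76% of their mean. The call in unaffected mutants was lost without their replicate 1 (adjusted p = 0.0542 by edgeR) or replicate 2 (adjusted p = 0.0548 by edgeR), with the log2 fold change at 0.47 in both cases.

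The step from unaffected to affected mutants was 0.36 on the log2 scale for *grhl1* (95% interval 0.14 to 0.57), with an edgeR adjusted p of 0.0794. It passed in 2 of 17 alternatives, with the replicate number as a block (replicate block, adjusted p = 0.0399 by edgeR) and in DESeq2 (adjusted p = 0.0255), the adjusted p running from 0.0255 to 0.328 over all of them. The level of *grhl1* thus differed from wild-type in both mutant groups, while the difference between the mutant groups passed only in these 2 settings.

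Grhl3 is the grainyhead-like factor known in mouse for its part in the epidermal barrier and neural tube closure, and in fish it is a marker of the enveloping layer. *grhl3* RNA was at 43.2, 33.6 and 49.0 CPM in wild-type, 46.8, 45.1 and 40.0 CPM in unaffected and 71.7, 59.5 and 58.5 CPM in affected libraries. All affected libraries were above all others, whereas unaffected and wild-type libraries overlapped. *grhl3* rose 1.51-fold in affected mutants against wild-type (log2 fold change 0.59, standard error 0.14; adjusted p = 0.0109 by edgeR). In unaffected mutants against wild-type the log2 fold change was 0.07, with a 95% interval from -0.25 to 0.38 (adjusted p = 0.813 by edgeR).

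Affected against unaffected mutants, *grhl3* had a log2 fold change of 0.53 (95% interval 0.21 to 0.84; adjusted p = 0.0770 by edgeR). The same difference passed with the replicate block (0.52; adjusted p = 0.0385 by edgeR), in a fit of the 6 mutant libraries alone (adjusted p = 0.0379 by edgeR) and in DESeq2 (adjusted p = 0.0173). It also passed when wild-type replicate 2 or 3 was left out (adjusted p by edgeR of 0.0442 and 0.0476). In the other 12 of 17 alternatives *grhl3* did not pass: without any single mutant library the adjusted p by edgeR was 0.106 to 0.254, and without replicate 3 of both mutant groups it was 0.263.

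The 4 Krüppel-like factors did not pass the test in any comparison. By edgeR, 0 of 4 were called in each of the 3, and DESeq2 likewise called 0 of 4, where DESeq2 called 13.3%, 32.1% and 7.22% of all genes in unaffected and in affected mutants against wild-type and between the mutant groups. An unadjusted p under 0.05 was found for 0 of 4 in unaffected and in affected mutants against wild-type, and for 1 of 4 between the mutant groups, beside 25.0%, 41.4% and 18.2% of all genes.

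Klf17 is a zebrafish factor of the enveloping layer and the hatching gland. *klf17* RNA was at 73.5, 74.1 and 87.4 CPM in wild-type, 93.3, 87.6 and 80.8 CPM in unaffected and 92.9, 82.6 and 87.0 CPM in affected libraries. The groups overlapped throughout. The log2 fold change of *klf17* was 0.15 in unaffected (95% interval -0.06 to 0.37) and 0.16 in affected mutants (-0.06 to 0.38) against wild-type, and 0.00 between the mutant groups (-0.21 to 0.22).

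Klf2a and Klf2b are the fish duplicates of mammalian KLF2, of which *klf2a* is best known for its response to blood flow in endothelium. The RNA of *klf2a* was at 50.8, 48.0 and 48.4 CPM in wild-type, 50.9, 47.7 and 50.7 CPM in unaffected and 27.3, 30.5 and 55.3 CPM in affected libraries. Replicates 1 and 2 of the affected mutants were lower than every other library, and replicate 3 was the highest of all 9. *klf2a* had a log2 fold change of -0.38 in affected mutants against wild-type (standard error 0.22; adjusted p = 0.214 by edgeR) and -0.40 against unaffected mutants (adjusted p = 0.366 by edgeR). Without affected replicate 3 these became -0.76 (adjusted p = 0.00133 by edgeR) and -0.78 (adjusted p = 0.0164 by edgeR). Without affected replicate 1 or 2 the difference from wild-type was -0.18 or -0.23, so the value for *klf2a* moved by over 1.5 times whichever affected library was left out.

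The RNA of *klf2b* was at 71.8, 66.7 and 62.2 CPM in wild-type, 92.6, 90.2 and 50.6 CPM in unaffected and 86.5, 87.5 and 79.1 CPM in affected libraries. Every affected library was above every wild-type library, and in the unaffected group replicates 1 and 2 were high and replicate 3 was the lowest of all. The log2 fold change of *klf2b* was 0.33 in affected (standard error 0.19; adjusted p = 0.212 by edgeR) and 0.22 in unaffected mutants (standard error 0.19; adjusted p = 0.532 by edgeR) against wild-type. Without unaffected replicate 3 these were 0.34 (adjusted p = 0.0146 by edgeR) and 0.45 (adjusted p = 0.0166 by edgeR), and without unaffected replicate 1 or 2 the latter was 0.08 or 0.10. Affected against unaffected mutants, *klf2b* had a log2 fold change of 0.12 (adjusted p = 0.800 by edgeR) and of -0.12 without unaffected replicate 3. In a fit of only the wild-type and affected libraries *klf2b* also passed (log2 fold change 0.34, adjusted p = 0.0258 by edgeR). In that fit the filter, the scaling and the spread were taken without the unaffected libraries, and the reason for the change was not tested.

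Klf6a is the fish counterpart of KLF6, a factor of epithelial growth and of liver development. Its RNA was at 48.9, 50.01 and 58.0 CPM in wild-type, 46.0, 51.6 and 51.2 CPM in unaffected and 58.4, 56.2 and 63.7 CPM in affected libraries. Affected libraries were above all unaffected libraries but overlapped those of wild-type. The log2 fold change of *klf6a* between the mutant groups was 0.26 (95% interval 0.05 to 0.48; adjusted p = 0.189 by edgeR), and this is the Krüppel-like factor with the unadjusted p under 0.05.

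**Figure D2:**
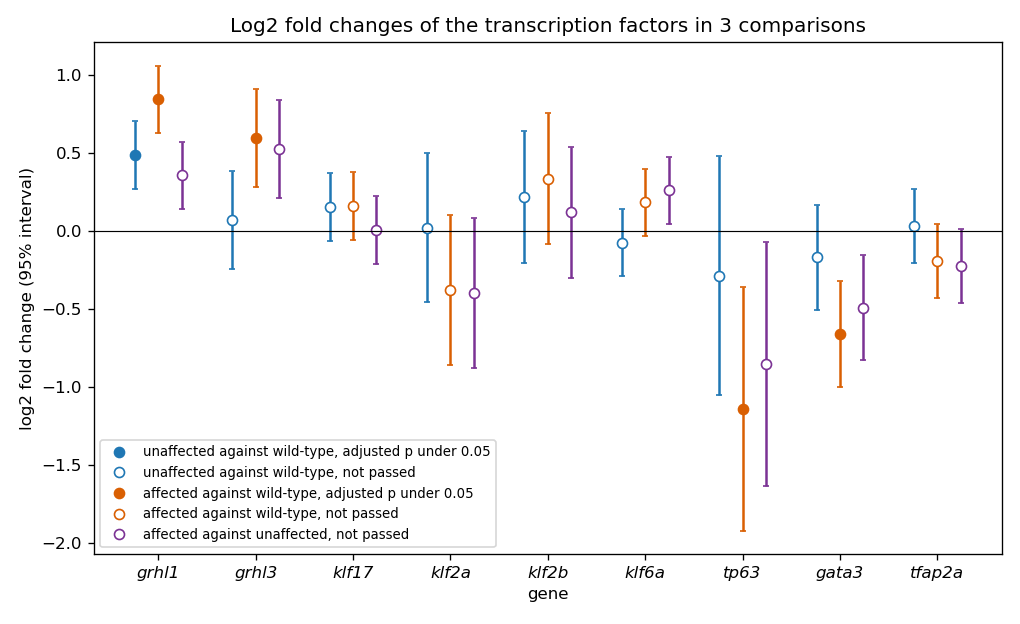
Log2 fold change (vertical axis) with its 95% interval for each factor in 3 comparisons, from 1 edgeR fit of 9 libraries, with filled points where the adjusted p was under 0.05. Filled points are *grhl1* in unaffected mutants (0.49) and *grhl1* (0.84), *grhl3* (0.59), *tp63* (-1.14) and *gata3* (-0.66) in affected mutants against wild-type, and *tp63* has the widest intervals.

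Of the 3 factors of ventral ectoderm, *tp63* and *gata3* fell in affected mutants against wild-type, where 15.0% of all genes fell, and *tfap2a* did not pass the test. Tp63 is the master regulator of basal epidermis and a direct target of BMP signals in zebrafish. Its RNA was at 42.5, 55.9 and 45.2 CPM in wild-type, 31.3, 31.0 and 55.3 CPM in unaffected and 14.2, 14.8 and 36.0 CPM in affected libraries. In both mutant groups replicates 1 and 2 were close to each other and replicate 3 was far above them. Even so, every affected library was below every wild-type library.

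*tp63* fell to 0.453 of the wild-type level in affected mutants (log2 fold change -1.14, standard error 0.35; adjusted p = 0.0334 by edgeR), the largest change among the 9 factors. Over the alternatives this value ran from -1.71 to -0.90. The call was lost without wild-type replicate 1 (adjusted p = 0.0550 by edgeR) or 2 (adjusted p = 0.0899 by edgeR) and without affected replicate 1 (0.119) or 2 (0.123). In unaffected mutants the log2 fold change of *tp63* was -0.29 with a 95% interval from -1.06 to 0.48 (adjusted p = 0.661 by edgeR). It was -0.62 without unaffected replicate 3 (adjusted p = 0.297 by edgeR), -0.15 and -0.14 without unaffected replicates 1 and 2, and -0.16 without wild-type replicate 2. For affected against unaffected mutants it was -0.85 (adjusted p = 0.233 by edgeR), without affected replicate 3 it was -1.43 (adjusted p = 0.0330 by edgeR), and without unaffected replicate 3 it was -0.52 (adjusted p = 0.568 by edgeR).

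Gata3 is a zinc finger factor of ventral non-neural ectoderm that lies downstream of BMP signals. Its RNA was at 87.2, 84.8 and 68.9 CPM in wild-type, 73.0, 81.0 and 60.3 CPM in unaffected and 42.8, 49.3 and 60.1 CPM in affected libraries. Affected libraries were below all others, the margin between affected replicate 3 and unaffected replicate 3 being small. *gata3* fell to 0.632 of the wild-type level in affected mutants (log2 fold change -0.66, standard error 0.15; adjusted p = 0.00919 by edgeR), a call kept in every alternative tried, with values from -0.80 to -0.55. Against unaffected mutants it was -0.49 (95% interval -0.83 to -0.16; adjusted p = 0.115 by edgeR), and in unaffected mutants against wild-type -0.17 (-0.50 to 0.17; adjusted p = 0.542 by edgeR).

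Tfap2a is an AP-2 factor of non-neural ectoderm and neural crest. *tfap2a* RNA was at 308, 315 and 265 CPM in wild-type, 308, 338 and 263 CPM in unaffected and 261, 254 and 264 CPM in affected libraries. The highest affected library was only just below the lowest wild-type library, and the wild-type and unaffected groups overlapped. *tfap2a* had a log2 fold change of -0.19 in affected mutants against wild-type (95% interval -0.43 to 0.05; adjusted p = 0.204 by edgeR) and 0.03 in unaffected mutants (-0.21 to 0.27; adjusted p = 0.892 by edgeR).

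Groups of libraries that do not overlap were found for 6 of 9 factors in affected mutants against wild-type, namely *grhl1*, *grhl3* and *klf2b* above and *tp63*, *gata3* and *tfap2a* below. Of all genes tested 45.1% did not overlap in that comparison. In unaffected mutants against wild-type 1 of 9 did not overlap, beside 27.9% of all genes. Between the mutant groups 4 of 9 did not overlap, *grhl1*, *grhl3* and *klf6a* being higher and *gata3* lower in affected mutants, beside 25.4% of all genes.

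Replicate 3 of the mutant groups set the spread of several factors. On the log2 scale *tp63* deviated from its group mean by 0.87 in affected replicate 3 and by 0.55 in unaffected replicate 3. *klf2a* deviated by 0.63 in affected replicate 3 and by 0.03 in unaffected replicate 3, and *klf2b* by -0.57 in unaffected replicate 3 and by -0.09 in affected replicate 3. Both mutant libraries numbered 3 were thus high for *tp63*, whereas *klf2a* and *klf2b* each stood far from the group mean in 1 of them. Wild-type libraries deviated less than these for *tp63*, *klf2a* and *klf2b*, but not for every factor. Wild-type replicate 3 deviated by 0.16 for *klf17*, 0.15 for *klf6a*, -0.21 for *gata3* and -0.16 for *tfap2a*. For *grhl3* wild-type replicates 2 and 3 deviated by -0.30 and 0.24. For *grhl3*, *klf17* and *klf6a* the largest deviation of all libraries was in a wild-type one.

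**Figure D3:**
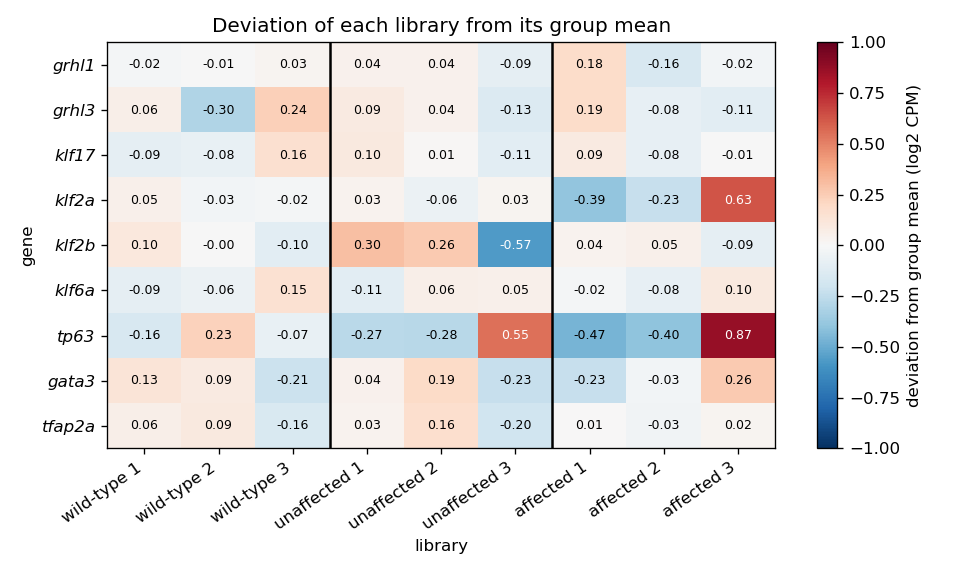
Difference in log2 CPM between each library (columns) and the mean of its group for each factor (rows), with red above and blue below the mean. The largest differences are in replicate 3 of the mutant groups: 0.87 and 0.55 for *tp63*, 0.63 for *klf2a* and -0.57 for *klf2b*.

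Leaving out replicate 3 of both mutant groups was a setting added after the data had been seen. In it edgeR called 1620 of all genes in unaffected and 4529 in affected mutants against wild-type, and 78 between the mutant groups. Of the 9 factors it called 3 in unaffected mutants against wild-type. These were *grhl1*, *klf2b* (log2 fold change 0.46; adjusted p = 0.0222 by edgeR) and *tp63* (-0.61; adjusted p = 0.0277 by edgeR). Without unaffected replicate 3 alone *tp63* was at -0.62 (adjusted p = 0.297 by edgeR). Its call came only when affected replicate 3, which is outside this comparison, was left out as well. With both left out, 6 of 9 were called in affected mutants against wild-type: *grhl1*, *grhl3*, *klf2b* (0.39) higher and *klf2a* (-0.76), *tp63* (-1.71) and *gata3* lower. Between the mutant groups *klf2a* (-0.77; adjusted p = 0.0411 by edgeR) and *tp63* (-1.1; adjusted p = 0.0400 by edgeR) were lower in affected mutants. The direction of every call made with all libraries was kept. The group means then rest on 2 libraries per mutant group.

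Across the 9 libraries, which share the group differences just described, the log2 CPM of *grhl1* and *grhl3* had a Pearson correlation of 0.81, and that of *tp63* and *klf2a* of 0.87. *gata3* and *tfap2a* had a correlation of 0.83. *grhl3* ran against *tp63* (-0.85) and *gata3* (-0.82). Since the groups differ in these genes, these coefficients restate in part the differences between groups, and no test was made.

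Among genes with an average log2 CPM of at least 3, the pattern over the 9 libraries most like that of *grhl1* was that of *arhgef16* (Pearson correlation 0.99), followed by *ccdc97* (0.98). For *grhl3* it was that of *cebpb*, a leucine zipper factor of epidermal differentiation (0.96), followed by *gna15.1*, a G protein alpha subunit (0.96). For *tp63* the most alike were *pcdh19*, a protocadherin (0.98), and *ifrd2* (0.96). For *klf6a* they were *bnip4* (0.96) and *bbc3* (0.95), both of the BCL2 cell death network. For *gata3* they were *usp6nl* and *ddhd1* (0.94 for both), for *tfap2a* *bmp2k* (0.96) and *tanc2* (0.95), and for *klf2b* *cep83* (0.98) and *scyl2* (0.97). For *klf17* they were *mief2* and *srsf10b* (0.91 for both), and for *klf2a* *eif3i* (0.90) and *socs5a* (0.89), the least close of the set. No member was among the 2 genes most like another member. The search ran over all named genes above that level, so this says little of the members. These correlations too may restate in part the differences between groups.

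Of 29 other transcription factors of the same tissues that were tested, 6 rose and 6 fell in affected mutants against wild-type, beside 15.4% and 15.0% of all genes. Their median log2 fold change was -0.02, the same as over all genes. The grainyhead-like family did not move as 1 block. *grhl2a* was at 6.71, 7.44 and 9.63 CPM in wild-type and at 25.8, 25.0 and 17.0 CPM in affected libraries (log2 fold change 1.51; adjusted p = 0.00189 by edgeR). The row named *grhl2* (ENSDARG00000061974), named here after its values were seen because it is the remaining grainyhead-like gene of the list, was at 20.6, 23.2 and 24.9 CPM in wild-type and at 11.1, 8.91 and 18.7 CPM in affected libraries (-0.83; adjusted p = 0.0401 by edgeR). So 3 grainyhead-like genes were higher in affected mutants and 1 was lower.

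Among the other called factors *elf3*, an ETS factor of epithelia, rose by 1.59 on the log2 scale (adjusted p = 0.0368 by edgeR), at a low level of 0.875 to 2.00 CPM in affected libraries. *dlx5*, a homeobox factor of the ectoderm at the border of the neural plate, had a log2 fold change of -1.96 (adjusted p = 0.00693 by edgeR), and *klf7* (ENSDARG00000073857) of -1.67 (adjusted p = 0.00104 by edgeR). In unaffected mutants against wild-type 1 of 29 passed, beside 9.60% of all genes. It was *klf11* (ENSDARG00000013794), with a log2 fold change of -1.76 (adjusted p = 0.00959 by edgeR). Between the mutant groups 2 rose and 0 fell, *grhl2a* (1.1; adjusted p = 0.0447 by edgeR) and *cebpa* (0.67; adjusted p = 0.0174 by edgeR), a leucine zipper factor. In that comparison 12 of 29 had an unadjusted p under 0.05 and DESeq2 called 6, beside 18.2% and 7.22% of all genes. By edgeR 2.99% of all genes were called there.

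Genes that carry out the work of the enveloping layer and periderm, such as keratins, claudins and desmosomal plaque proteins, changed in both directions. Of 34 tested in affected mutants against wild-type 7 rose and 12 fell, with a median log2 fold change of -0.26. Of all genes 15.4% rose and 15.0% fell. *anxa1* (ENSDARG00000026726), an annexin, rose by 2.01 on the log2 scale (adjusted p = 0.00108 by edgeR) and its relative *anxa1b* had a log2 fold change of -2.34 (adjusted p = 0.000737 by edgeR). *gsto2*, a glutathione transferase, rose by 1.88 (adjusted p = 0.000576 by edgeR), and *anxa2* had a log2 fold change of -1.96 (adjusted p = 0.0127 by edgeR). Over all 38 matched identifiers, tested or not, the list's summed level was 15381 to 19900 CPM in wild-type, 17895 to 20404 CPM in unaffected and 14833 to 16022 CPM in affected libraries. In affected mutants the factors *grhl1* and *grhl3* were thus higher while more of these effector genes fell than rose.

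In unaffected mutants against wild-type 4 of 34 effector genes rose and 0 fell, with 12 at an unadjusted p under 0.05 and 9 called by DESeq2. Of all genes 9.60% were called and 4.65% rose, 25.0% had an unadjusted p under 0.05 and DESeq2 called 13.3%. *gsto2* rose by 1.51 (adjusted p = 0.00425 by edgeR) and *anxa1* by 1.19 (adjusted p = 0.0301 by edgeR). In affected against unaffected mutants 0 rose and 6 fell, led by the type I keratins *cyt1* (log2 fold change -1.25; adjusted p = 0.0368 by edgeR) and *cyt1l* (-1.18; adjusted p = 0.0386 by edgeR). Of the 34, 21 had an unadjusted p under 0.05 and 16 were called by DESeq2, beside 18.2% and 7.22% of all genes. By edgeR 2.99% of all genes were called between the mutant groups.

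**Figure D4:**
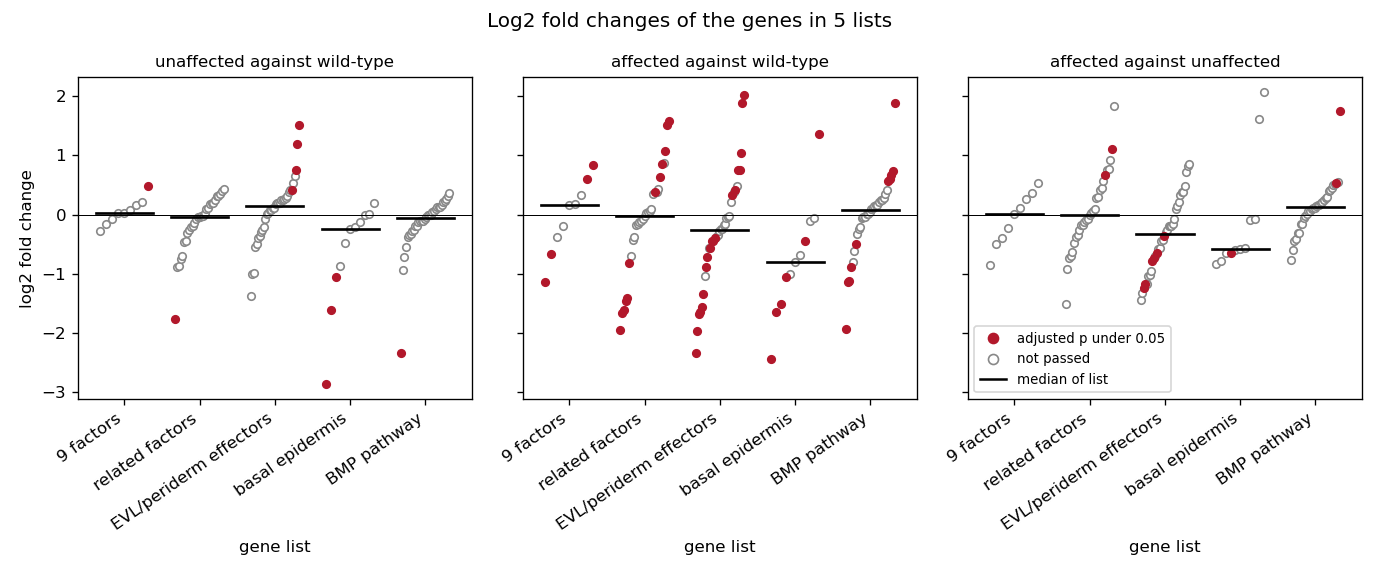
Log2 fold change (vertical axes) of the 9 factors and of the tested genes of 4 lists in 3 comparisons, sorted within each list, with filled red points where the edgeR adjusted p was under 0.05 and a bar at the median. In affected mutants against wild-type the effector and basal epidermis lists have medians of -0.26 and -0.80, and the related factors one of -0.02.

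Of 11 tested genes of the basal epidermis and its attachment to the basement membrane, the tissue marked by *tp63*, 1 rose and 5 fell in affected mutants against wild-type. Their median log2 fold change was -0.80, and of all genes 15.4% rose and 15.0% fell. *frem2* (ENSDARG00000076856), an extracellular matrix protein of the Fraser complex, was at 20.9 to 32.9 CPM in wild-type and at 4.07 to 4.92 CPM in affected libraries (-2.45; adjusted p = 0.00014 by edgeR). The integrin *itgb4* of hemidesmosomes had a log2 fold change of -1.65 (adjusted p = 0.00276 by edgeR). For the counts that follow, the shares of all genes called were 9.60% in unaffected mutants against wild-type and 2.99% between the mutant groups. In unaffected mutants 3 of 11 fell, among them *frem2* (-1.61; adjusted p = 0.00216 by edgeR) and, at under 1 CPM, *col17a1b* (-2.87; adjusted p = 0.0142 by edgeR). Affected against unaffected mutants, 1 fell, *dsp* (ENSDARG00000076673; -0.65; adjusted p = 0.0124 by edgeR), a desmosomal gene that is in both lists.

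Of 32 tested genes of the BMP pathway, which acts upstream of *tp63* and *gata3* in ventral ectoderm, 5 rose and 5 fell in affected mutants against wild-type, with a median log2 fold change of 0.07. The share called, 31.3%, is close to that of all genes, 30.3%, so the genes named here are single examples and no result about the pathway. In unaffected mutants against wild-type 9.60% of all genes were called, and between the mutant groups 2.99%. The ventral homeobox gene *vent* rose by 0.73 (adjusted p = 0.00359 by edgeR) and *tbx2* (ENSDARG00000006120) by 1.88 (adjusted p = 0.00132 by edgeR). *crim1*, which binds BMP ligands, had a log2 fold change of -1.94 (adjusted p = 0.000901 by edgeR), and the receptor gene *bmpr2* (ENSDARG00000020057) of -1.14 (adjusted p = 0.00325 by edgeR). In unaffected mutants 1 of 32 was called, *crim1* (-2.34; adjusted p = 0.000878 by edgeR). Against unaffected mutants *tbx2* (1.75; adjusted p = 0.0174 by edgeR) and the ligand gene *bmp2* (ENSDARG00000041430; 0.54; adjusted p = 0.0399 by edgeR) rose.

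With replicate 3 of both mutant groups left out, the numbers called in affected mutants against wild-type were 13 related factors, 20 effector genes, 7 basal epidermis genes and 9 BMP pathway genes. In unaffected mutants they were 3, 6, 4 and 4, and between the mutant groups 0, 3, 1 and 0. Of all genes 4529, 1620 and 78 were called, in the same order of comparisons. The filter on low counts was applied anew in this fit, so the numbers tested may differ from those above.

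When single libraries were left out, the numbers called in affected mutants against wild-type were 9 to 13 related factors, 14 to 20 effector genes, 4 to 7 basal epidermis genes and 7 to 10 BMP pathway genes, all within 1.5 times. Of all genes 3402 to 5459 were called there. In unaffected mutants against wild-type the numbers of the lists were 1 to 2, 2 to 7, 1 to 5 and 1 to 4, with the highest number of each list without unaffected replicate 3. Of all genes 758 to 1797 were called there, the highest number likewise without unaffected replicate 3. The lowest for the effector genes was without wild-type replicate 1 or unaffected replicate 2, and for the basal epidermis genes without unaffected replicate 1. Between the mutant groups the numbers of the lists were 0 to 3, 2 to 12, 0 to 1 and 0 to 2, beside 42 to 697 of all genes. The 12 effector genes were called without wild-type replicate 3, where 697 of all genes were called. The numbers of 2 or 3 came without unaffected replicate 1 or 3 or affected replicate 1 or 2. There 48, 97, 67 and 42 of all genes were called, so the count of this list moved with that of all genes. With the replicate block the numbers were 3, 7, 5 and 2 in unaffected mutants against wild-type and 6, 16, 2 and 5 between the mutant groups. Of all genes 2758 and 1399 were called in these comparisons.

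Markers of other cell types in the embryo were read against the 30.3% of all genes called in affected mutants. Calls were counted over the tested markers, whereas sums run over all matched identifiers of a list, tested or not. In affected mutants against wild-type 6 of 15 tested neural plate markers fell and 0 rose. The 6 became 2 without wild-type replicate 2, affected replicate 1 or affected replicate 2, where 4350, 3496 and 3402 of all genes were called. The sums over 16 neural plate identifiers were 1717 to 1804 CPM in wild-type, 1797 to 1820 CPM in unaffected and 1534 to 1644 CPM in affected libraries. Of 11 tested markers of the yolk syncytial layer 6 rose and 2 fell, with sums over 15 identifiers of 3560 to 3750, 3034 to 3629 and 3966 to 4822 CPM. Of 8 tested endoderm markers 5 rose and 1 fell, with sums over 9 identifiers of 632 to 732, 677 to 725 and 729 to 810 CPM. Of 15 tested mesoderm markers 5 rose and 5 fell, with sums over 16 identifiers of 2438 to 3244, 2320 to 2447 and 2066 to 2297 CPM.

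Among smaller lists, the sums in wild-type, unaffected and affected libraries were 4.35 to 8.09, 14.1 to 19.2 and 17.4 to 20.5 CPM for 8 identifiers of primitive blood and vascular progenitors. Of these 4 were tested. Against wild-type 3 rose in affected and 2 in unaffected mutants, beside 15.4% and 4.65% of all genes. Between the mutant groups 0 were called, beside 2.99%. The sums were 210 to 292, 232 to 278 and 281 to 294 CPM for 9 hatching gland and polster identifiers. Of the 6 tested 1 rose and 2 fell in affected mutants against wild-type, and 5 were called without wild-type replicate 3, beside 4903 of all genes. For 6 primordial germ cell markers, all tested, the sums were 44.2 to 52.6, 36.2 to 58.0 and 60.2 to 79.7 CPM. Of these 3 rose and 3 fell in affected mutants against wild-type, and 3 were called without affected replicate 3, beside 4148 of all genes. Of all identifiers in these lists, 0 had no count in any library. The part of all these cell types in the levels of the 9 factors was not tested.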

How the data were processed

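The authors deposited unnormalized counts of exonic reads for each gene. Total RNA had been depleted of ribosomal RNA, and paired-end reads of stranded libraries were mapped with STAR to GRCz11 and counted where uniquely mapped to Ensembl gene loci. The submitters' processing notes give STAR 2.4.0i. Whether counting used the strand is not given in the sources used here, and pairs shared by near-identical genes were lost, so that values of paralogues and overlapping genes are uncertain. The labels name polyA RNA, and the protocol was followed. Each column was matched to its sample by title.

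Symbols came from a table of Ensembl identifiers (28986 of 32055 matched), printed in lower case; some listed genes ending in a or b were matched to the symbol without that letter. The test was that of edgeR 4.0.16 in R 4.3.3 (filterByExpr by group, TMM, glmQLFit and glmQLFTest, two-sided, all 9 libraries and 3 groups in 1 fit, no covariate, Benjamini-Hochberg over 16962 genes, threshold 0.05), checked on simulated data. Standard errors came from the coefficient and its F statistic, and 95% intervals from the t distribution with the degrees of freedom of the fit. The SD is over 3 libraries. DESeq2 1.42.0, which the study used, other scalings and filters, the replicate number as a block and each library left out were alternatives. The study counts its replicates as biological repeats, but the labels do not say whether libraries of a group came from separate clutches. The p-values thus measure the spread between these libraries, which may not cover that between clutches. Libraries of a group differed well beyond sampling noise (chi-square per degree of freedom 9.06 to 67.7), and each was counted once. The highest values were those of wild-type replicate 3 against wild-type replicates 1 (54.1) and 2 (67.7).

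Deviations from group means of libraries with the same number correlated by 0.123, 0.141 and 0.268 between unaffected mutants and wild-type. Between the mutant groups the values were 0.169, 0.236 and 0.462, and between affected mutants and wild-type 0.0805, 0.113 and 0.260. For unaffected replicate 1 a wild-type library of another number correlated more highly (0.134). In every other case the same number gave the highest value. For replicate 3 the highest values with another number were -0.0705, -0.239 and -0.0977, in the same order of comparisons. The same number thus stood out clearly for replicate 3, and barely or not for replicate 1 against wild-type. Whether the numbers pair the libraries was not settled. The main fit has no block, and the fit with the replicate block is an alternative. Any pairing would come from the data and not from the labels, which give only numbers.

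The 9 factors and the 11 gene lists were chosen with earlier results of these data known. The text names all 9 factors, in the 4 lists of related factors, effector genes, basal epidermis and BMP pathway genes the 2 called genes of each comparison with the largest rise and the 2 with the largest fall, the 2 genes most like each factor, and *mlxip*. The rule also covered the 7 lists of markers of other cell types, which are given by counts and sums with no gene named, and 1 further gene is left out of the text. Intronic counts and the knockdown experiment were not analysed here. No sequences are printed, and no coordinates are given.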

Additional observations from a re-analysis of the deposited data

How the results depend on the processing

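Over 17 alternatives for each value, the log2 fold changes of the 9 factors were never reversed where they had been called. The calls of *grhl3* and *gata3* in affected mutants and of *grhl1* in affected mutants, all against wild-type, were kept in every alternative, and the changes of other calls are given with the genes. The number of factors called was 0 to 2 in unaffected and 3 to 5 in affected mutants against wild-type, and 0 to 2 between the mutant groups, when single libraries were left out. With replicate 3 of both mutant groups left out (added after the data had been seen) it was 3, 6 and 2, beside 1620, 4529 and 78 of all genes. Between the mutant groups it was 2 in DESeq2, 1 with only the 6 libraries compared and 2 with the replicate block; the replicate block changed no other call of the 9 factors.

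Of all genes, 1628, 5144 and 507 were called in the 3 comparisons in the order above. When single libraries were left out the counts ran from 758 to 1797, from 3402 to 5459 and from 42 to 697. They moved by over 1.5 times without unaffected replicate 1 (809) or 2 (758) in the first, without affected replicate 2 (3402) in the second, and without unaffected replicate 1 (48) or 3 (97) or affected replicate 1 (67), 2 (42) or 3 (333) in the third. In unaffected mutants the count was 965 with only the 6 libraries compared and 2758 with the replicate block. Between the mutant groups it was 1224 in DESeq2, 1399 with the replicate block and 78 with replicate 3 of both mutant groups left out. The causes of these moves were not tested beyond the number of libraries in each fit. Other scalings moved the median of all genes by at most 0.06 on the log2 scale. With 3 libraries per group, *tp63*, *klf2a* and *klf2b*, whose values hang on replicate 3, are the least certain of the factors, and counting error is small beside the spread between libraries.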
